A study of Mus musculus with 48 samples.

Results

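The genes described here encode the proteins of the cytosolic ribosome. They are the protein-coding genes of the count table whose symbol starts with Rpl or Rps and a number, together with Rplp0, Rplp1 and Rplp2, leaving out the Rps6 kinases and symbols marked as pseudogenes. The rule found 85 of the 55401 genes in the table. They fall into 43 proteins of the large subunit, 30 of the small subunit, 3 stalk proteins, 8 paralogs and Rps19bp1, which encodes a partner of Rps19 and is not itself a ribosomal protein. Some proteins of the ribosome do not match the symbol rule, and of these Rpsa, Fau and Rack1 are given beside the members.

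RNA was sequenced from colon tissue of 48 male mice on the C57BL/6J background, 18 to 20 weeks old, killed at CT1, CT5, CT9, CT13, CT17 or CT21 after they had spent more than a day in darkness. Circadian time (CT) counts the hours of the internal day, and mice are active in its later part. The 24 Bmal1IEC-/- mice carried floxed Bmal1 alleles and a Cre recombinase driven by the Villin promoter, so that the clock gene Bmal1 is deleted in intestinal epithelial cells only. The 24 control littermates carried the same floxed alleles (Bmal1 fl/fl) without Cre. Each of the 12 groups held 4 mice, and the main results use 46, without Bmal1IEC-/- mice SV384 and SV385 at CT1. This leaves 2 Bmal1IEC-/- mice at CT1.

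A ribosome holds a large and a small subunit, each built in the nucleolus from ribosomal RNA and proteins made in near equal numbers. Messenger RNAs of ribosomal proteins are among the most abundant of a cell. Many of them begin with a cytosine followed by a run of pyrimidines (a terminal oligopyrimidine start), through which mTORC1 and Larp1 control their translation. In the intestine the demand for ribosomes is high, since the epithelium is renewed from dividing crypt cells. A count of messenger RNA does not measure translation.

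The pyrimidine start is the sequence feature these genes are best known for, so a few RefSeq starts are printed here on GRCm38.p6. Each line runs 5′ to 3′ from 10 bases before the annotated start through the first 20 transcribed bases. Members with a run are followed by 4 without one, the paralogs Rpl7l1 and Rpl22l1 and the higher-called Rps2 and Rpl4. Capitals mark the run of C and T from the first transcribed base, where this base is C and at least 4 pyrimidines follow it.
Rps6 (chr4:86857348-86857377, minus strand): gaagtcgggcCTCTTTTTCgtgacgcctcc
Rpl15 (chr14:18270967-18270996, minus strand): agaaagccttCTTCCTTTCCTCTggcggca
Rplp2 (chr7:141447641-141447670, plus strand): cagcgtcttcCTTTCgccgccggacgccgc
Rps27 (chr3:90213629-90213658, minus strand): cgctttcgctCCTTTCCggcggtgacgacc
Rps27rt (chr9:114982720-114982749, minus strand): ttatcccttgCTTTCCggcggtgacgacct
Rpl7l1 (chr17:46782637-46782666, minus strand): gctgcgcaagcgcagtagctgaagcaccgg
Rpl22l1 (chr3:28805498-28805527, plus strand): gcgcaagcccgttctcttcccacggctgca
Rps2 (chr17:24720053-24720082, plus strand): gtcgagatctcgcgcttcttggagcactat
Rpl4 (chr9:64173377-64173406, plus strand): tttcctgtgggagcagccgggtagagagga

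Of the 65 members with a RefSeq start, 14 held such a run, which is 21.5%, beside 3.01% of 27025 genes of RefSeq. The run is set by the exact annotated base, so a start placed a few bases away has no match. Rps27 and its retrogene copy Rps27rt each held one. CACGTG, the E-box letters that Bmal1 and Clock bind, reads alike on both strands and was present in 6 of the 65 windows (9.23%), from 250 bases before to 50 bases after the start, beside 8.09% of all genes. The 6 genes were Rpl13a, Rpl14, Rpl19, Rpl23, Rpl34 and Rps19, of which Rpl19, Rpl34 and Rps19 had a rhythm in control mice in the test given below. That test called a rhythm in 37 of the 80 members tested and in 49.8% of all genes, and the share among the 6 was near both. CCGGAAG, the core letters bound by ETS factors, was searched on both strands and was in 25 windows (38.5%), beside 9.93% of all genes. These matches are letters in a window and not measured sites.

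Total counts ran from 3144997 to 4785844 per mouse, and counts on the 85 genes from 90325 to 159272. Genes of the clock were used as a check of the labels. Arntl, which encodes BMAL1, lay between 4.15 and 9.21 CPM (counts scaled by library size) in the 4 control mice at CT9 and between 22.4 and 40.7 CPM in the 4 Bmal1IEC-/- mice, whereas at CT1 the controls were higher, at 64.0 to 73.8 CPM (4 mice) against 44.4 and 46.9 CPM (2 mice). SV384 and SV385, labelled with the same group, were at 27.7 and 25.5 CPM. The clock target Nr1d2 had a median of 102.5 CPM in control and 38.8 CPM in Bmal1IEC-/- mice. SV384 and SV385 stood apart from the other 2 Bmal1IEC-/- mice at CT1. They held 3.72% and 3.71% of their counts on members, beside 2.98% and 3.03%, and SV385 had a summed CPM of smooth muscle markers of 890.4, beside 3807 and 3713 in SV479 and SV480. With both included, the mean share of the Bmal1IEC-/- mice at CT1 was 3.36% ± 0.41 (SD, n = 4).

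The members held a mean of 2.89% ± 0.23 (SD, n = 24) of all counts in control mice and 3.03% ± 0.25 (n = 22) in Bmal1IEC-/- mice. In bulk tissue, fewer cells of a type and less RNA per cell cannot be told apart. The ranges of the groups overlapped, from 2.53 to 3.46% and from 2.67 to 3.92%. In control mice the mean was lowest at CT1, at 2.72% ± 0.06 (n = 4), and highest at CT9, at 3.16% ± 0.30 (n = 4). In Bmal1IEC-/- mice the means at CT1, CT5 and CT9 were 3.004% (n = 2), 3.02% and 3.23%, and the lowest was 2.85% ± 0.12 at CT21 (n = 4). The mean at CT9 contains mouse SV410 at 3.92%, while the other 3 mice lay between 2.99 and 3.01%. SV410 also had the highest summed B-cell marker level of all 46 mice, 19.8 CPM, beside 3.41 to 8.87 CPM in the other 3 mice of its group, and it was the highest of its 4 mice in 74 of the 80 members tested. Its summed levels of T-cell, smooth muscle and goblet cell markers, 29.0, 5262 and 26607 CPM, were the highest of the Bmal1IEC-/- mice. The part of these in its share was not tested. Shares describe the libraries and were given no test.

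**Figure D1:**
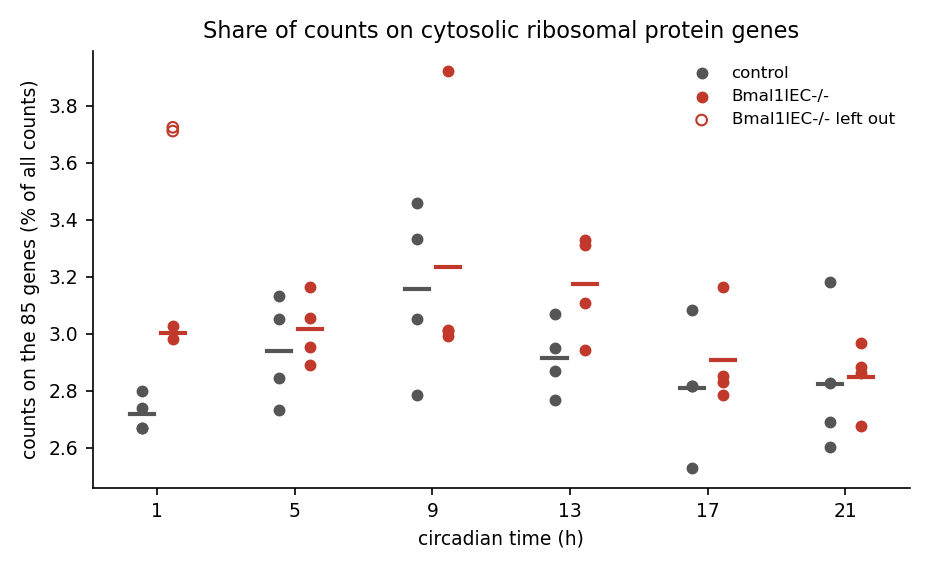
Share of all counts on the 85 genes (%, vertical axis) in each mouse by circadian time (h, horizontal axis), with bars at the group means; open points are the Bmal1IEC-/- mice at CT1 left out of the main results. Control means rise from 2.72% at CT1 to 3.16% at CT9, and Bmal1IEC-/- mouse SV410 lies at 3.92%.

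Levels of different genes were compared as CPM per kilobase of the principal transcript (a per-length level). The 76 subunit and stalk proteins had a median level of 408 over the 46 mice, and 70 of them lay between 100 and 1200. Rps27, a protein of the small subunit, had the highest mean, 1117 ± 123 (SD, n = 24) in control mice. Rpl10, Rpl7a and Rps18 followed at 861 ± 62.5, 838 ± 49.8 and 823 ± 97.4. The ranges of these 3 overlapped in control mice. They come from the same libraries, and their order within each mouse was not tested. Rpl7, Rps4x, Rps3a1, Rpl26, Rpl9 and Rpl41 completed the highest 10, at means over the 46 mice of 827, 826, 778, 749.9, 729 and 718. Lengths of all exons joined, an alternative chosen after seeing the data, kept 4 of the 10 highest genes among the highest 10, and the order is therefore tied to the length used.

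Among the subunit proteins, 3 had per-length levels under 20. Rpl24, Rps10 and Rpl13a, whose proteins are constant parts of the ribosome, stood at 1.62, 5.84 and 12.5. Exons of other genes on the same strand covered 47.0%, 20.6% and 35.4% of their exon bases, and 80.1%, 47.7% and 55.2% of the windows of 100 bases in their transcripts also occurred in transcripts of other genes. Shared windows were as common in some of the highest members, at 84.4% in Rpl10 and 73.5% in Rpl7a, and their part in the levels was not tested. Overlap of more than 20% was found in 4 members, the fourth being Rpl36al. For Rps27 the shared windows came to 98.4% and for its retrogene copy Rps27rt to 89.5%. Reads that map to several places were removed before counting, so these 2 genes may both be counted too low. Since more than 50% of windows were shared in 26 members, their levels are uncertain in the same way.

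Some of the paralogs are known to be made in place of their partners in certain tissues. Rpl10l, a paralog of Rpl10 active in the testis, had 0 counts in all 48 mice, which allows up to 0.627 to 0.954 CPM per mouse (3 counts, counting error only). Rpl39l had 4 counts over all 48 mice, Rpl3l, the muscle paralog of Rpl3, had 65, and Rpl36al had 98. These 4 genes and Rpl24 were below the filter on low counts, so 80 of the 85 members were tested. Of the paralogs that were well detected, Rpl22l1 reached a per-length level of 100.9 over the 46 mice beside 99.6 for Rpl22, Rps27l 142 beside 1117 for Rps27, and Rpl7l1 29.0 beside 827 for Rpl7. With the lengths of all exons joined, Rpl22l1 stood at 28.0 and Rpl22 at 70.2, so their near equality is tied to the length used. Rps27l and Rpl7l1 were below their partners with either length.

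The comparison of genotypes asked whether loss of the epithelial clock changed the level of these messenger RNAs. In a fit with terms for genotype and circadian time, 3 of the 80 members were higher in Bmal1IEC-/- mice at an adjusted p under 0.05, beside 5.44% of all 14475 genes tested, so that the share of members called was no larger than that of all genes. None was lower, beside 5.64% of all genes. DESeq2 also called none lower, and none was lower at an unadjusted p under 0.05, beside 1821 of all 14475 genes. The 3 genes were Rpl4, Rps2 and Rpl22.

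Rpl4, a protein of the large subunit that lines the exit tunnel (chr9:64173375-64178666 on GRCm38, plus strand), had a lowest, median and highest level of 899, 1019.6 and 1113 CPM in control mice and 973, 1072 and 1291 CPM in Bmal1IEC-/- mice. The groups overlapped over most of their range. The log2 difference was 0.084 ± 0.027 (SE, adjusted p = 0.0314, edgeR). Rps2, a protein of the small subunit near the messenger RNA entry (chr17:24718116-24721929), ran from 426 through 492 to 606 CPM and from 456 through 542 to 698 CPM, with a log2 difference of 0.12 ± 0.038 (adjusted p = 0.0358, edgeR). Rpl22, a large subunit protein at the ribosome surface (chr4:152325742-152334071), ran from 148 through 203 to 241 CPM and from 179.6 through 215 to 269.8 CPM. Its log2 difference was 0.11 ± 0.037 (adjusted p = 0.0387, edgeR). For each of these genes the highest mouse was the same one, Bmal1IEC-/- mouse SV410, whose share of counts on members was the highest of all mice. The lowest was a control, which was SV398 for Rpl4 and Rpl22.

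Small differences in 1 direction ran through the whole family. The fitted difference was above 0 in 78 of the 80 tested members, beside 7512 of all 14475 genes. Its median on the log2 scale was 0.069, beside 0.0049 over all genes. All 42 tested large subunit proteins (0.0062 to 0.11), all 30 small subunit proteins (0.0026 to 0.12) and the 3 stalk proteins (0.057 to 0.075) were above 0. The 2 members below 0 were Rps27rt (-0.078 ± 0.083) and Rpl7l1 (-0.0045 ± 0.046), and neither passed the test. Without adjustment, 25 members were higher at a p under 0.05, beside 1685 of all 14475 genes. The members share their libraries and are not independent of each other. The median was 0.069 with relative log expression factors and 0.069 with factors from genes other than members, and 0.11 over all 48 mice. In the fit of 48 mice 8 members were called higher, and the share of all genes called there is not given here. At a fold of at least 1.5, none was called. Rps28, Rpl11, Rpl10a, Rps14 and Rpl7a came next, with log2 differences between 0.071 and 0.11 and adjusted p of 0.0523, 0.0678, 0.0787, 0.0839 and 0.103 (edgeR).

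The count of 3 depended on single mice. It was 0 without control CT17 mouse SV398 and 6 without control CT21 mouse SV433, which was the highest of its 4 mice in 75 members. Leaving out Bmal1IEC-/- CT9 mouse SV410 gave 1. SV398 had the lowest share of counts on members of all mice, 2.53%. The call of Rpl4 was kept in 44 of the 46 fits without 1 mouse, that of Rps2 in 30 and that of Rpl22 in 23. Of 12 other alternatives, 5, 6 and 5 kept these calls, with adjusted p up to 0.218, 0.139 and 0.213 (edgeR). Without all mice of CT1, CT13, CT17 or CT21, no member was called, and without those of CT9, 8 were. The shares of all genes called in these fits are not given here.

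**Figure D2:**
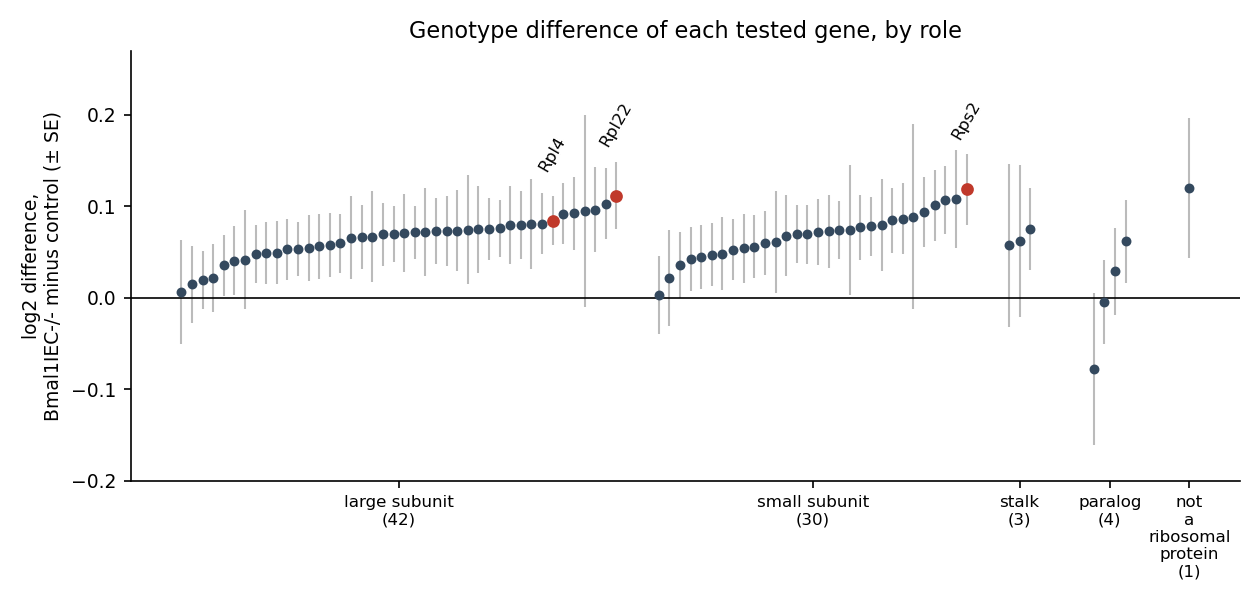
Fitted log2 difference, Bmal1IEC-/- minus control (vertical axis, with SE), of the 80 tested genes ordered within their role (horizontal axis, number of genes in brackets). Red points are Rpl4, Rpl22 and Rps2, with an adjusted p under 0.05, and 78 of the 80 points lie above 0.

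Among other genes of ribosome supply the same comparison gave the following counts, all over the 46 mice. Rpsa, Fau and Rack1 had differences of 0.11, 0.027 and 0.050 on the log2 scale, and none passed the test. Of 19 translation factors and other genes known for pyrimidine starts, 1 was higher (Btf3, 0.095 ± 0.030) and none lower, with a median of 0.046. Of 32 genes of ribosome assembly and RNA polymerase I, 3 were higher and none lower, with a median of 0.11. They were Nop58, a protein of box C/D particles (0.15 ± 0.047), Rrn3 (0.14 ± 0.043) and Taf1c (0.25 ± 0.078), both of which start ribosomal RNA synthesis. Of 76 tested proteins of the mitochondrial ribosome, 16 were higher and none lower, with a median of 0.11 and Mrps5 at 0.20 ± 0.041 (adjusted p = 0.000574, edgeR). Of 17 genes of mTORC1 and its effectors, Larp1, which binds pyrimidine starts, was higher (0.11 ± 0.035, adjusted p = 0.0378, edgeR) and none lower, and the median was 0.0028. Differences above 0 were thus not particular to the members. They were found in all 19 translation factors, 31 of 32 assembly genes, 75 of 76 mitochondrial ribosome proteins and 9 of 17 mTORC1 genes.

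Markers of the cell types in the tissue also moved with genotype. All 6 smooth muscle markers were below 0, with a median of -0.19 and 2 of 6 called lower, and so were all 6 fibroblast markers (median -0.13, 1 called lower), all 4 of the endothelium (-0.15, 2 called lower) and all 4 of neurons and glia (-0.24, 1 called lower). The summed smooth muscle level ran from 3525 to 5640 CPM in control and from 3137 to 5262 CPM in Bmal1IEC-/- mice. All 4 absorptive colonocyte markers were below 0 as well, with a median of -0.34 and 2 called lower. Epithelial markers were mixed, with Cdh1 and Krt8 higher and Epcam lower among 6. Of 6 goblet cell markers, 3 were higher and 2 lower. None of the 5 tested T-cell, 2 tested B-cell, 3 tested plasma cell or 4 macrophage markers passed the test, nor did any of the 6 for dividing and stem cells. All 5 T-cell (median -0.22) and all 4 macrophage markers (-0.092) were below 0, and all 3 plasma cell markers were above 0 (0.17). The part of these markers in the members' differences was not tested.

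Genotypes were also compared at each circadian time. At CT1, where 2 Bmal1IEC-/- mice faced 4 controls, the median log2 difference of the members was 0.20. There 79 of 80 were above 0, beside 7269 of all 14475 genes. None passed the test, beside 1.51% of all genes, and 22 were higher at an unadjusted p under 0.05, beside 1251 of all genes. With SV384 and SV385 included, 68 members were called at CT1 and the median was 0.44, beside -0.024 over all genes. The share of all genes called in that fit is not given here, so the 68 cannot be set against it. At CT5, CT9, CT17 and CT21 the medians were 0.059, 0.023, 0.040 and 0.024, and none passed, beside 0.456%, 1.82%, 1.11% and 0.394% of all genes. DESeq2 called none at these times or at CT1. At unadjusted p under 0.05, 1 member was higher at CT5, beside 501 of all genes, and none was higher or lower at CT9, CT17 or CT21. Over all genes, 864 were higher and 686 lower at CT9, 510 and 630 at CT17, and 571 and 622 at CT21. At CT13 the median was 0.094 and 74 of 80 were above 0, beside 7105 of all genes. The 1 member called, beside 4.72% of all genes, was lower.

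That member was Rpl7l1, a paralog of Rpl7 that is known from ribosome assembly (chr17:46773907-46782672, minus strand). At CT13 its levels were 101.1, 107, 88.9 and 98.3 CPM in the 4 control mice and 83.1, 71.5, 81.7 and 76.7 CPM in the 4 Bmal1IEC-/- mice. Each control mouse was above each Bmal1IEC-/- mouse. The log2 difference was -0.34 ± 0.088 (adjusted p = 0.017, edgeR). It lost its call when SV448, SV396 or SV397 was left out, each a mouse of CT13, and when genes with few counts were kept in the test. Rpl7 showed no such difference at CT13, where its mean was 929 ± 45.7 CPM in control and 982 ± 34.8 CPM in Bmal1IEC-/- mice (n = 4 each).

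Over the day, Rpl7l1 had the smallest p of any member for a 24-h rhythm in both genotypes. In control mice its level stayed between 55.8 and 74.9 CPM in the 12 mice of CT1, CT5 and CT9 and between 70.3 and 107 CPM in the 12 mice of CT13, CT17 and CT21. The fitted curve peaked at 15.7 h with an amplitude of 0.33 on the log2 scale, measured from mean to peak (adjusted p = 2.43e-07, edgeR). In Bmal1IEC-/- mice the levels were 98.8, 81.8, 90.6 and 93.6 CPM at CT17, the time of the highest mean, and at CT5, where all 4 mice were below those of every other time, 52.5, 58.0, 56.4 and 61.1 CPM. In these mice the fitted peak was 17.3 h and the amplitude 0.30 (adjusted p = 1.46e-05, edgeR). The difference between these rhythms did not pass (adjusted p = 0.647, and 0.0769 with circadian time as a factor of 6 levels, edgeR). Both rhythms were called in all 46 fits without 1 mouse.

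**Figure D3:**
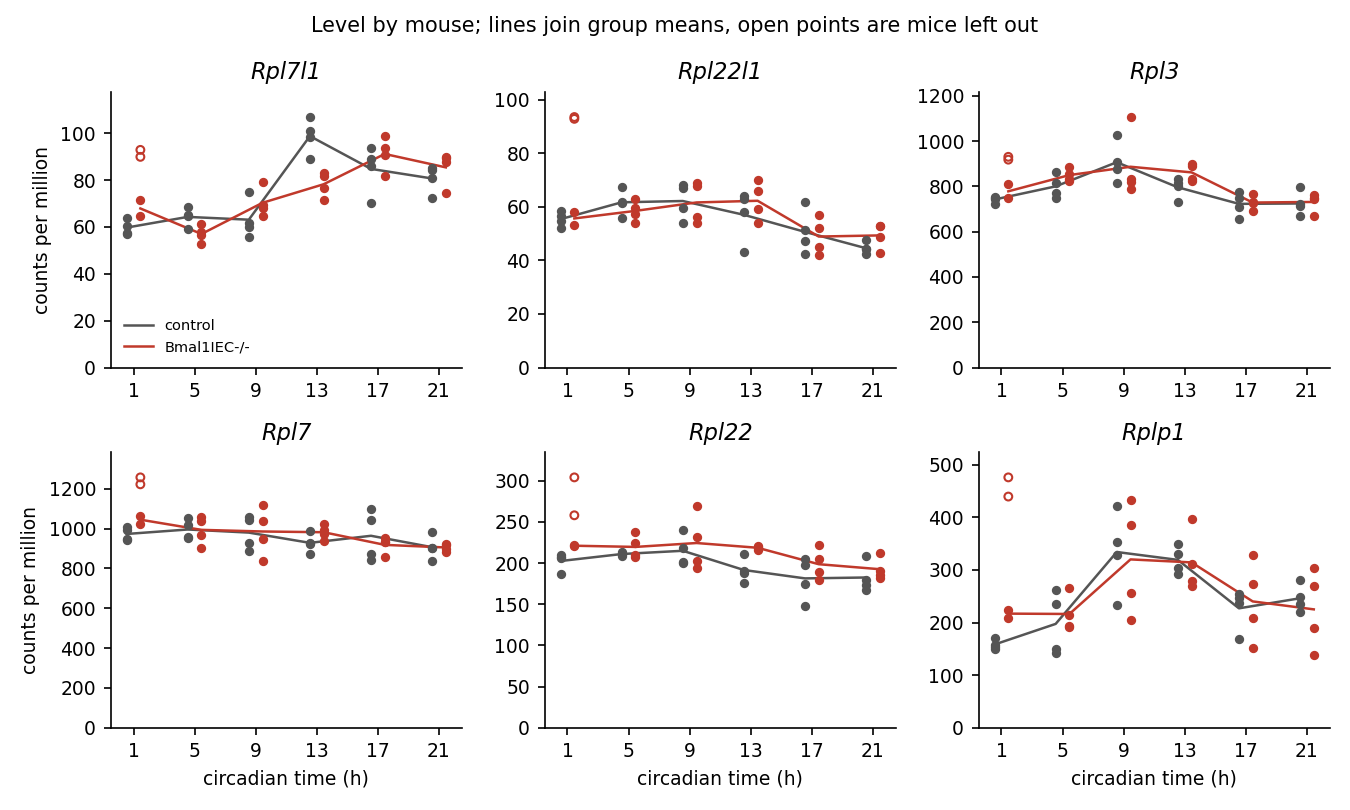
CPM (vertical axes, from 0) of 6 genes by circadian time (h, horizontal axes), 1 point per mouse, with lines joining group means of the 46 mice and open points for the 2 mice left out. Rpl7l1 rises between CT9 and CT13 in control mice, to 88.9 to 107 CPM, while Rpl7 changes little over the day.

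A 24-h rhythm was called in 37 of the 80 members in control mice, beside 49.8% of all genes tested, and in 13 in Bmal1IEC-/- mice, beside 27.2% of all genes. The control share, 46.25%, was near its background, and 30 to 47 members were called when 1 mouse was left out. The Bmal1IEC-/- share, 16.25%, was below its own background. Of these members, 9 were rhythmic in both genotypes. No member had a rhythm that differed between genotypes, beside 0.94% of all genes, and none did so in DESeq2. At an unadjusted p under 0.05 none did either, beside 1522 of all 14475 genes. The lower count in Bmal1IEC-/- mice thus does not show a difference between genotypes, and it ran from 5 to 18 when 1 mouse was left out. Amplitudes were small, at medians of 0.095 (control) and 0.085 (Bmal1IEC-/-), beside 0.20 and 0.16 over all genes, and they were smaller in Bmal1IEC-/- mice for 50 of the 80 members, beside 67.6% of all genes.

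By role, a rhythm was called in control mice in 14 of 42 large subunit proteins, 17 of 30 small subunit proteins, all 3 stalk proteins, 2 of 4 tested paralogs and Rps19bp1. In Bmal1IEC-/- mice the counts were 4, 6, 1, 2 and 0. Among the genes beside the family, 13 of 19 translation factors were rhythmic in control and 8 in Bmal1IEC-/- mice, 16 and 9 of 32 genes of ribosome assembly, 36 and 14 of 76 proteins of the mitochondrial ribosome, and 8 and 4 of 17 genes of mTORC1. In none of these 4 lists did the rhythm of any gene differ between genotypes (edgeR).

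Peak hours of the members lay close together. Of the 37 rhythmic members in control mice, 30 had their fitted peak between 8 and 14 h, with a median of 11.2 h, whereas 17.1% of all rhythmic genes peaked in this window. In Bmal1IEC-/- mice, 10 of 13 did, with a median of 9.01 h, beside 16.9% of all rhythmic genes. The window was not set beforehand, so these shares describe the peaks and do not test them. Rps10, Rpl7l1, Rps19bp1 and Rpl18 peaked later in control mice, at 16.1, 15.7, 15.7 and 14.3 h. Rps4x and Rpl22 peaked earliest, at 5.69 and 6.17 h. Rps10 rests on a mean of 5.01 CPM in control mice.

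**Figure D4:**
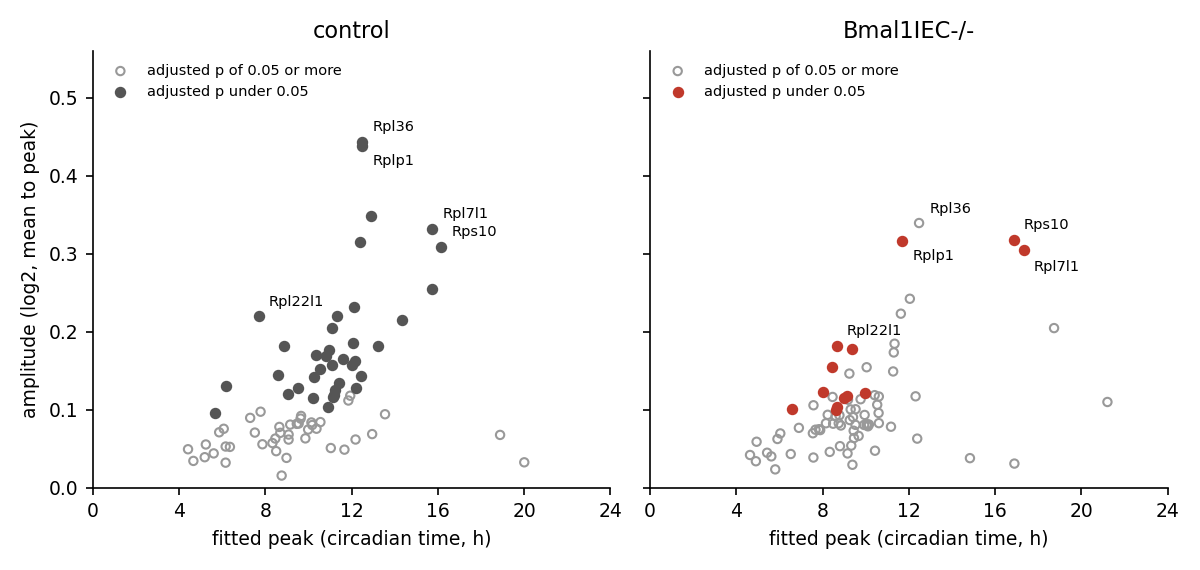
Amplitude (log2, mean to peak, vertical axis) against fitted peak (circadian time in h, horizontal axis) of the 80 tested genes in control (left) and Bmal1IEC-/- mice (right). Filled points are the 37 and 13 genes with an adjusted p under 0.05, of which 30 and 10 peak between 8 and 14 h.

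Rpl3, a large subunit protein near the catalytic center (chr15:80077791-80091868, minus strand), had after Rpl7l1 the smallest p in Bmal1IEC-/- mice. Its levels in control mice were 1026, 817, 909 and 877 CPM at CT9 and 796, 712, 669 and 722 CPM at CT21. At CT9 all 4 were above all 4 of CT21. The amplitude was 0.14 with a peak at 8.61 h in control mice (adjusted p = 0.000644, edgeR) and 0.15 at 8.42 h in Bmal1IEC-/- mice (adjusted p = 0.00116, edgeR). Both calls were kept without each of the 46 mice and under every alternative tried.

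Rpl10a, a large subunit protein at the exit site (chr17:28328471-28331033), behaved alike. Control mice had 416, 377, 436 and 377 CPM at CT9 and 301, 309.8, 323 and 289.8 CPM at CT1, so that the times did not overlap. Its amplitude was 0.18 in both genotypes (adjusted p = 0.000746 and 0.00388, edgeR). Rpl12, which forms the base of the stalk, had amplitudes of 0.15 and 0.12 (adjusted p = 0.00137 and 0.0312, edgeR). Rps12 was called in control mice, with an amplitude of 0.17 (adjusted p = 0.00106, edgeR), and missed the threshold in Bmal1IEC-/- mice at 0.087 (adjusted p = 0.204, edgeR). The reverse held for Rps23 and Rpl32, with amplitudes of 0.10 and 0.12 in Bmal1IEC-/- mice (adjusted p = 0.0333 and 0.0339, edgeR) and of 0.076 and 0.092 in controls. Both calls were kept under 3 of 8 alternatives, and that of Rpl12 in Bmal1IEC-/- mice under 4. The test of a changed rhythm passed for none of these genes. Its smallest p among the members was that of Rpl18, with amplitudes of 0.22 in control and 0.038 in Bmal1IEC-/- mice (adjusted p = 0.597, edgeR).

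Rpl22l1, which can replace Rpl22 in the large subunit (chr3:28805436-28807424), had its highest control mean at CT9, 62.2 ± 6.75 CPM, and at CT5, 61.7 ± 4.795 CPM (SD, n = 4 each). Single control mice had 61.7, 55.8, 62.0 and 67.5 CPM at CT5 and 47.7, 44.1, 44.2 and 42.2 CPM at CT21, with no overlap. The amplitude was 0.22 with a peak at 7.70 h (adjusted p = 0.000627, edgeR), and in Bmal1IEC-/- mice 0.18 at 8.65 h (adjusted p = 0.0119, edgeR). Rpl22 itself had an amplitude of 0.13 at 6.17 h in control mice (adjusted p = 0.00802, edgeR) and of 0.11 in Bmal1IEC-/- mice (adjusted p = 0.0614, edgeR). In SV384 and SV385, Rpl22l1 stood at 92.9 and 93.6 CPM, above every other mouse.

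The acidic stalk proteins, which recruit elongation factors to the ribosome, had some of the largest amplitudes. Rplp1 (chr9:61913284-61914542, minus strand) had 158, 154, 171 and 149.9 CPM at CT1 in control mice and 329, 349, 293 and 304 CPM at CT13. Every mouse of CT13 was above every mouse of CT1. The amplitude was 0.44 with a peak at 12.5 h (adjusted p = 0.000736, edgeR), and in Bmal1IEC-/- mice 0.32 at 11.7 h (adjusted p = 0.0456, edgeR), a call kept in 34 of the 46 fits without 1 mouse and under 3 of 8 alternatives. Rplp2 had an amplitude of 0.35 in control mice (adjusted p = 0.0055, edgeR) and Rplp0, their anchor, 0.16 (adjusted p = 0.0113, edgeR). Neither passed in Bmal1IEC-/- mice, at 0.22 and 0.12 (adjusted p = 0.176 and 0.133, edgeR). The highest amplitude of all members in control mice was that of Rpl36, 0.44 at 12.5 h (adjusted p = 0.00503, edgeR), and Rps29 had 0.32.

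In 1 group, chosen after its values were seen, these genes varied together. At CT5 the control mice SV442, SV443, SV446 and SV447 had 262, 235, 150.1 and 142 CPM of Rplp1, 61.4, 49.0, 28.8 and 24.6 CPM of Rpl36 and 253, 214, 155 and 142 CPM of Rps29. The first 2 mice were above the other 2 for all 3 genes. In the same mice Rpl7l1 had 65.1, 64.7, 59.0 and 68.5 CPM, and this order was not seen.

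In control mice, more of the members of high GC content had a called rhythm. The 79 tested members with a mean of at least 10 CPM were split in 3 by the GC content of the principal transcript. Of the 27 with the lowest GC (40.6 to 49.2%), 5 were rhythmic in control mice, and so were 12 of the 26 in the middle and 19 of the 26 with the highest (54.0 to 60.8%). The median amplitudes were 0.070, 0.10 and 0.14. In Bmal1IEC-/- mice the counts were 5, 5 and 2 and the amplitudes 0.074, 0.089 and 0.098. Across these 79 genes, which share the same libraries, Spearman's rho of GC content with the amplitude was 0.40 in control and 0.29 in Bmal1IEC-/- mice, and rho of transcript length with it was -0.18 and -0.15. Among other protein-coding genes of the same GC ranges, 49.3%, 52.7% and 54.3% were rhythmic in control mice, and 2.85%, 7.38% and 18.2% were rhythmic with a peak between 8 and 14 h. Of these other genes, 28.02%, 31.62% and 26.97% were rhythmic in Bmal1IEC-/- mice. Their median amplitudes were 0.175, 0.181 and 0.219 in control mice and 0.142, 0.145 and 0.164 in Bmal1IEC-/- mice. Median amplitudes thus rose from the lowest to the highest GC range in other genes as well. The part of GC content in the members' rhythms was not tested. The 14 members with a pyrimidine start had a median amplitude of 0.083 in control mice, beside 0.092 in 46 tested members with another start, and 4 and 21 of them were rhythmic.

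**Figure D5:**
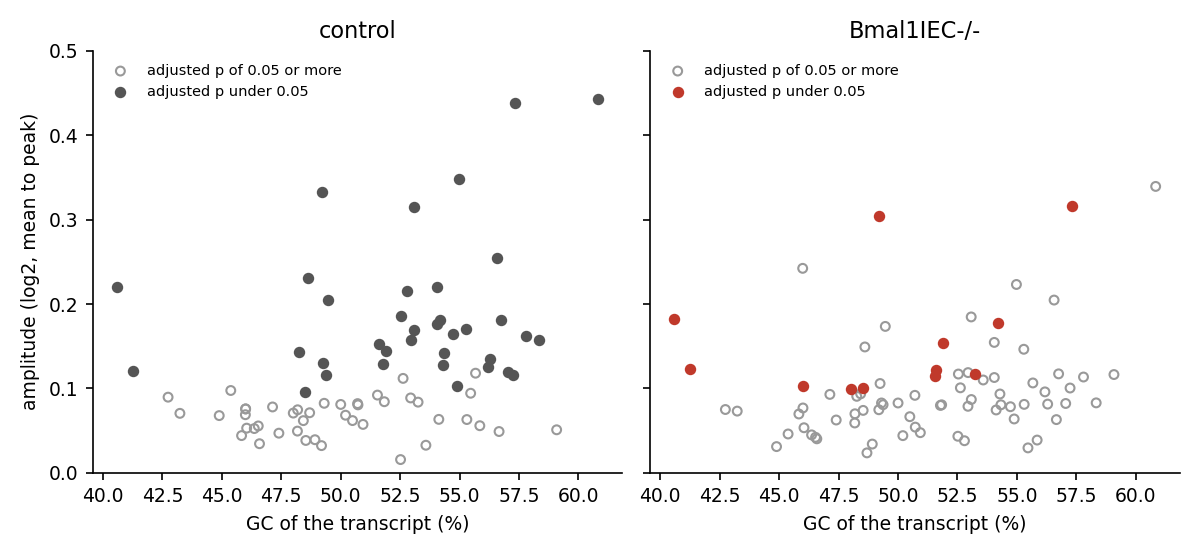
Amplitude (log2, mean to peak, vertical axis) against GC content of the principal transcript (%, horizontal axis) of 79 genes in control (left) and Bmal1IEC-/- mice (right), with filled points for an adjusted p under 0.05. In control mice 19 of the 26 genes of highest GC are filled, and 5 of the 27 of lowest GC.

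Single members of known special function showed small values. Rpl5 and Rpl11, which form a particle with 5S ribosomal RNA and can bind Mdm2, had genotype differences of 0.069 ± 0.034 and 0.092 ± 0.034 (adjusted p = 0.207 and 0.0678, edgeR). Their rhythms did not pass in either genotype. Rps6, the substrate of S6 kinase, had a difference of 0.078 ± 0.032 (adjusted p = 0.117, edgeR) and amplitudes of 0.081 and 0.083, which did not pass. Rps4x and Rps3a1, both of the small subunit, had rhythms in Bmal1IEC-/- mice with amplitudes of 0.10 and 0.099 (adjusted p = 0.0412 and 0.0413, edgeR), of which that of Rps4x was also called in control mice. Each was kept under 4 of 8 alternatives, and in 34 and 35 of the 46 fits without 1 mouse.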

How the data were processed

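RNA of 48 colon samples was sequenced from libraries made with a TruSeq Stranded mRNA kit, which the paper also names for the depletion of ribosomal RNA. The authors trimmed the reads, aligned them to mm10 and counted them per gene, and deposited raw counts, whole numbers for 55401 genes. The submitters' processing notes name FastQC 0.11.5, Trimmomatic 0.39, STAR 2.7.5c, SAMtools 1.3.1, featureCounts 1.4.6 and DESeq2 1.22.0. Reads that map to several places were removed by mapping quality, so that members with near-identical copies lose reads. Whether counting used strand is not given in the sources used here. Identifiers matched GENCODE vM21 for 55141 genes.

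Members and gene lists were chosen with earlier results of these data known. Counts were fitted in edgeR 4.0.16 (R 4.3.3, quasi-likelihood test, TMM factors, filterByExpr, 14475 genes left), and p-values were adjusted by Benjamini-Hochberg over all of them, with a threshold of 0.05. Genotype was tested beside circadian time, rhythms as a 24-h cosine and sine within each genotype, changed rhythms as the interaction, and genotype at each time in a fit with 12 groups. The main fit held 46 mice, the same as the size factors of the study's own rhythm table. CPM are counts scaled by the library total and its TMM factor. Every mouse is a separate animal, and no batch is given in the labels. The steps were tested on simulated data. Alternatives were DESeq2 1.42.0, JTK_cycle, other scaling factors, no filter, all 48 mice, and leaving out single mice or times.

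Genes named were the 10 highest and 3 lowest per-length levels, the 8 smallest p-values for each direction of the genotype difference and for each rhythm, the 5 smallest for changed rhythm, the stalk proteins, paralogs with their partners, Rpl5, Rpl11 and Rps6. Rpl13a, Rpl15, Rpl24, Rpl36, Rps10, Rps29 and the genes with an E-box were named after their values were seen. Some genes of the rule and the lists are not reported here. Floors cover counting error only, whereas each SE comes from the edgeR fit and includes the spread between mice.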

Additional observations from a re-analysis of the deposited data

Results flagged for a closer look

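In 9 quantities over the 12 groups of 4 mice, the highest or lowest mouse was set against the other 3 by the size of its gap. A mouse stood apart in 7 of the 108 groups, and chance gives about 1 in 20. Bmal1IEC-/- mouse SV410 at CT9 held 3.92% of its counts on members, beside 2.99 to 3.01% in the other 3 mice, and it was also highest for Rpl3, at 1107 CPM beside 789.7 to 832 CPM. Rpl4 was low in Bmal1IEC-/- mouse SV448 at CT13, at 993 CPM beside 1072 to 1082 CPM, and high in control mouse SV424 at CT13, at 1063 CPM beside 960.1 to 975 CPM. Rpl22 was low in control mouse SV468 at CT1, at 187 CPM beside 206 to 209.7 CPM. Rpl7l1 was low in Bmal1IEC-/- mouse SV471 at CT21, at 74.4 CPM beside 87.8 to 90.0 CPM. Rpl10a was high in Bmal1IEC-/- mouse SV416 at CT17, at 385 CPM beside 295 to 309 CPM.

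Entries of the count table with the name of a ribosomal protein pseudogene, which no comparison used, held a median of 653 counts per mouse, from 496 to 861.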

How the results depend on the processing

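The count of members higher in Bmal1IEC-/- mice, 3, was 8 with all 48 mice, 0 without the filter on low counts, 0 without the time term and 0 at a fold of at least 1.5. It was 0 without the mice of CT1, CT13, CT17 or CT21, 1 without those of CT5 and 8 without those of CT9. DESeq2 gave 4, and other scaling factors 3. Shares of all genes called under the alternatives are not given here, so these counts and the rhythm counts below cannot be set against them. Leaving out 1 mouse gave 0 to 6. The count was 0 without SV398, 5 without SV402, SV442 or SV400, 6 without SV433, and 1 without each of SV421, SV449, SV395, SV410, SV450, SV396, SV412, SV434, SV444, SV416, SV479 and SV480. Where SV479 or SV480 was left out, the lone mouse of its group was assumed to vary like the other groups.

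The 37 members rhythmic in control mice ranged from 25 with all 48 mice to 40 under JTK_cycle adjusted over phases, and from 30 to 47 without 1 mouse. The 13 rhythmic in Bmal1IEC-/- mice were 5 with all 48 mice, 6 without the filter, 5 with circadian time as a factor, and 5 under JTK_cycle adjusted over phases and genes. Without 1 mouse they were 5 to 18, with 5 without SV410 or SV445, 6 without SV395 or SV399, 7 without SV470 or SV444, 8 without SV477 or SV439, and 18 without SV400. No alternative gave a changed rhythm or a member lower over all times.

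At CT1, 68 members were called with all 48 mice and 4 without the filter, and the shares of all genes called in these fits are not given here. The 1 call at CT13, Rpl7l1, was 0 without the filter, 0 at a fold of at least 1.5, and 0 to 1 without 1 mouse. The mean share of counts was 3.21% (control) and 3.37% (Bmal1IEC-/-) of a total without the 10 genes with most counts, and without 1 mouse it ran (of all counts) from 2.87 to 2.91% and from 2.99 to 3.05%. The cause of these shifts was not tested. No paired analysis was possible because no mouse number is shared between groups. Rpl3l, Rpl10l, Rpl24, Rpl36al and Rpl39l had 0 to 200 counts in all 48 mice together, too few for a test.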
